A study of Mus musculus with 12 samples.

Results

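The Dlk1-Dio3 domain is a stretch of chromosome 12 in which genes are expressed from only one parental copy. Its long non-coding RNAs Meg3, Rian and Mirg are made from the maternally inherited copy, and its protein-coding genes Dlk1, Rtl1 and Dio3 from the paternal copy, under a control region that is methylated on the paternal chromosome. Rian carries box C/D snoRNAs, Mirg and its surroundings carry a large cluster of microRNA hairpins, and Meg3 is a nuclear RNA abundant in neurons. Meg3, Rian, Mirg, Dlk1 and Dio3 were taken by gene symbol, which gave 5 of the 52636 genes in the deposited tables. The domain was chosen by the difference of Meg3 between extinction levels, which the authors' deposited tables called in both sexes, so that difference is given below as a description and supports nothing further.

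Hippocampal RNA was sequenced from 12 mice of the C57BL6/J strain, all wild-type and 18 weeks old, with 3 low-extinction males, 3 high-extinction males, 3 low-extinction females and 3 high-extinction females. Fear extinction is the waning of a learned fear when its trigger returns without harm, and the comparison asks which transcripts differ between mice in which it was weak and mice in which it was strong. No allele was altered and no agent is named in the labels. Libraries were made from polyadenylated RNA, so the rows of microRNA hairpins and snoRNAs described here reflect longer precursors or fragments rather than the mature small RNAs.

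Each library came from a different mouse. Between 18170 and 19062 genes reached 1 TPM (a transcript level per unit of length, with every library set to one sum) in a library, and read depth per library is unknown. All 12 neuron markers were detected, with summed levels of 6808 to 8493 TPM. The dentate gyrus marker Prox1 lay between 39.0 and 50.6 TPM, and Wfs1, abundant in hippocampal area CA1, between 48.9 and 74.5 TPM. The TPM share of ribosomal RNA-derived rows was lowest in low-extinction female replicate 3 (7.05%) and highest in high-extinction male replicate 1 (23.5%). That female library also stood apart for Meg3, Mirg and Rian, and results that rest on it are given with and without it.

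In GRCm38, by GENCODE M21, the 5 genes lie on chromosome 12, plus strand. Dlk1 (ENSMUSG00000040856.17) spans positions 109452823 to 109463336 and Meg3 (ENSMUSG00000021268.17) 109541001 to 109571726. Rian (ENSMUSG00000097451.10) follows from 109603940 to 109661716, Mirg (ENSMUSG00000097391.8) from 109729764 to 109749460 and Dio3 (ENSMUSG00000075707.5) from 110279068 to 110281097. Rtl1 (ENSMUSG00000085925.3), a retrotransposon-derived gene, lies on the minus strand from 109589193 to 109600330. Strand use in counting is not given in the sources available, so reads of Rtl1 and of the plus-strand RNAs that cross it cannot be told apart.

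Promoters of all 5 genes were found in RefSeq on GRCm38.p6, with 2 start sites for Meg3, of which the first is used. The 3 printed here, each running from 250 bases before the annotated start to 50 after it, belong to Meg3, the RNA whose difference chose the domain, and to Dlk1 and Dio3, the protein-coding genes at the ends of the domain. Capitals mark matches on either strand to the cAMP response element TGACGTCA, its half-site TGACG (which the full element contains), the CCAAT box and the TATA box TATAAA.
Meg3, chr12:109540746-109541045, plus strand: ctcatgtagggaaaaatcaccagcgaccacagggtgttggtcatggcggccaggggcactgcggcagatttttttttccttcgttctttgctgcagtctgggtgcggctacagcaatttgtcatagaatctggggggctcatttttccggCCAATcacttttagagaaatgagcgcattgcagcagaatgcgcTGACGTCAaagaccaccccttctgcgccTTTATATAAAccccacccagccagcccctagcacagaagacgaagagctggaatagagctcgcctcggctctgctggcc
Dlk1, chr12:109452573-109452872, plus strand: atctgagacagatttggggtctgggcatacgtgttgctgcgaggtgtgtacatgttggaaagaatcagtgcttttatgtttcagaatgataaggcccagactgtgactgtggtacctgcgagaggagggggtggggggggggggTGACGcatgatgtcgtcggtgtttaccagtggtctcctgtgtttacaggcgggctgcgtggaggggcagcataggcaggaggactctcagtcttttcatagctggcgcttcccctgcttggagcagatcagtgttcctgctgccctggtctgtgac
Dio3, chr12:110278980-110279279, plus strand: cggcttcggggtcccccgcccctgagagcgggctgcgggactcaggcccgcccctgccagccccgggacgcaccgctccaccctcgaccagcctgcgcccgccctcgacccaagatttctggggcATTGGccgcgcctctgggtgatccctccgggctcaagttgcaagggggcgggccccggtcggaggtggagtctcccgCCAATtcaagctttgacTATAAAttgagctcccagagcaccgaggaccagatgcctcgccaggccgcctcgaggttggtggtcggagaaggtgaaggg

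The Meg3 promoter held a full TGACGTCA beginning 57 bases before the start, a CCAAT box 100 bases before it, and a TATAAA 25 bases before it that overlapped a second match on the other strand. Of all 32851 RefSeq mouse promoters of this length, 1.79% held TGACGTCA, 20.8% the half-site TGACG, 37.4% CCAAT and 13.6% TATAAA on either strand. Dio3 held 2 CCAAT matches and a TATAAA 31 bases before its start, in a window of 69% G and C with 25 CpG dinucleotides, against 13 in the Meg3 window and 9 in the Dlk1 window. Dlk1 held a single half-site, 106 bases before its start. The Rian window held none of the motifs and 0 CpG dinucleotides, and the Mirg window held a CCAAT box. That Mirg window, 109734731 to 109735030, follows the RefSeq start. It lies inside Mirg as GENCODE M21 places it, from 109729764, and covers the Mir668 hairpin. These matches describe letters only and say nothing of whether a factor was bound.

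RefSeq gave 114 mature microRNAs from 61 of the 67 annotated hairpin rows between Dlk1 and Dio3. The sequences below, with the seed (bases 2 to 8 from the 5′ end) in capitals, come from 4 hairpins, the Rian-embedded pair with the highest hairpin levels in these libraries, and a pair inside Mirg that share a seed.
miR-341-3p: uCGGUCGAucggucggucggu
miR-1188-5p: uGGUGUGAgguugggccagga
miR-453: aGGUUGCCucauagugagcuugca
miR-496a-5p: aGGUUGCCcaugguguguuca
The next 4 come from outside the host RNAs or from Mirg, and form further pairs with a shared seed.
miR-379-3p: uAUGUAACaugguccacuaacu
miR-411-3p: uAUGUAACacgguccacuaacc
miR-494-5p: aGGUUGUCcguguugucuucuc
miR-410-5p: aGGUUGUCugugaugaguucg
In all, 9 seeds were shared by mature microRNAs of different name within the domain. The seed is the stretch through which a microRNA chiefly recognises its targets.

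By TPM, the 3 maternally expressed RNAs stood far above the paternally expressed genes in these hippocampi. Over the 12 libraries Meg3 averaged 783 TPM, the 72nd highest level of all genes and 0.0783% of all TPM. Rian averaged 330 TPM and Mirg 25.7 TPM. Dlk1 averaged 4.09 TPM, Dio3 3.98 TPM and Rtl1 3.57 TPM. The 12 values of Meg3, Rian and Mirg did not overlap with one another, whereas Dlk1, Dio3 and Rtl1 overlapped and their order among themselves does not exceed the spread. By the mean normalised count in the authors' deposited tables, which is not divided by length, Meg3 lay further above Rian than by TPM. There Meg3 stood at 159435 in males and 189530 in females, the 11th and 8th highest of all genes, Rian at 16220 and 18558, and Mirg at 1122 and 1310. Dlk1 stood at 505 and 525, Rtl1 at 449 and 511, and Dio3 at 135 and 130. By counts, Mirg thus lay less far above Dlk1 and Rtl1 than by TPM. For each TPM, the authors' count of Meg3 was 222 in males and 223 in females, against 51.2 and 54.1 for Rian and 46.9 and 47.8 for Mirg. Meg3 and Rian have nearly the same annotated exon length, 18089 and 18234 bases, and the cause of this gap between the measures was not tested.

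Levels varied more between mice for Dlk1 and Dio3 than for Meg3 and Rian. The highest library was 1.84 times the lowest for Meg3 and 1.55 times for Rian, against 3.03 times for Mirg, 6.45 times for Dlk1 and 4.17 times for Dio3. The coefficient of variation was 16% for Meg3, 12.7% for Rian, 29.4% for Mirg, 42.9% for Dlk1, 43.4% for Dio3 and 15.3% for Rtl1. Rtl1 thus varied about as little as Meg3, at a level near that of Dlk1.

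**Figure D1:**
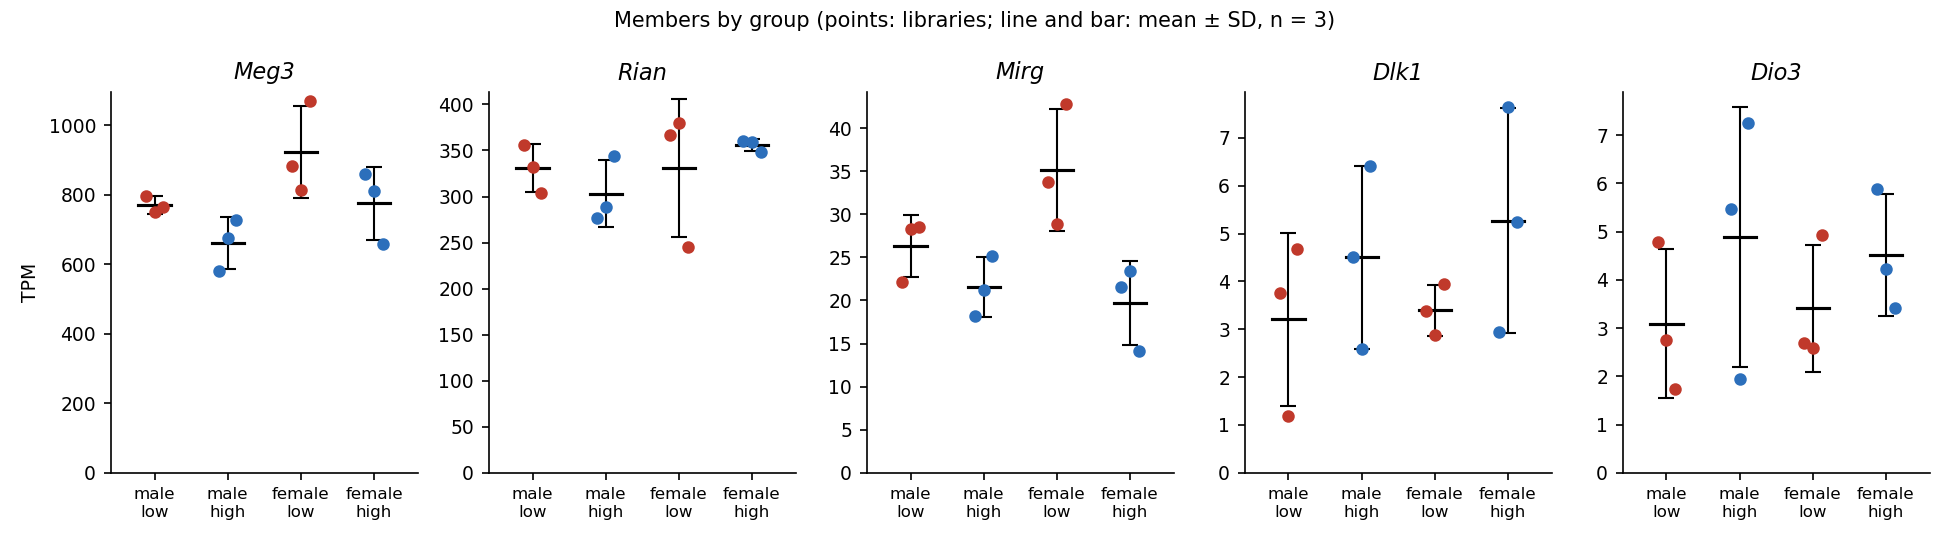
TPM of Meg3, Rian, Mirg, Dlk1 and Dio3 in each library, by sex and extinction level, with low extinction in red and high extinction in blue. Points are libraries, horizontal lines are means and bars are SD (n = 3 per group), and each panel has its own axis starting at 0. Replicate 3 of the low-extinction females had the highest Meg3 (1072 TPM) and Mirg (42.8 TPM) and the lowest Rian (244.8 TPM) of the 12.

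Meg3 levels were higher in low-extinction than in high-extinction mice of either sex. The males had 798, 750.5 and 764 TPM at low extinction, against 582, 677 and 729 TPM at high extinction. Every low-extinction male stood above every high-extinction male. In females it lay at 882, 815 and 1072 TPM at low extinction, against 860.3, 810.4 and 659 TPM at high extinction. The female groups overlapped, and the highest and lowest libraries set them apart. Male means were 771 ± 24.6 TPM (low) and 662 ± 74.7 TPM (high), and female means 923 ± 133 TPM (low) and 776 ± 105 TPM (high), each as mean ± SD of 3 libraries.

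By the authors' deposited tables, Meg3 was 1.19-fold higher at low extinction in males (log2 change 0.24, SE 0.06, DESeq2 adjusted p = 0.0251). The female value was 1.23-fold (0.30, SE 0.06, DESeq2 adjusted p = 0.000997). These are the values that chose it. Log2 changes are given throughout as low minus high. On log2(TPM + 1), a scale that understates changes of low genes, its change was 0.22 (SE 0.11, limma adjusted p = 0.828) in males and 0.25 (SE 0.13, limma adjusted p = 0.617) in females. In males the change was 0.13 on leaving out replicate 1 of high extinction. In females it was 0.14 without replicate 3 of low extinction and 0.13 without replicate 3 of high extinction. Male minus female, the log2 change differed by -0.05 (SE 0.09) in the authors' deposited tables and by -0.02 (SE 0.18, limma adjusted p = 0.979) on TPM, so these data do not resolve a sex difference.

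Meg3 was the single one of the 5 genes that the authors' deposited tables called, in males and in females. Over all genes, 0.504% had an adjusted p under 0.05 in the authors' male table (0.115% with low above high) and 0.857% in the female table (0.569% with low above high), and 7 of 15642 genes, 0.0448%, were called low above high in both. At an unadjusted p under 0.05 those tables had 2 of the 5 genes in males (Meg3 and Rian) and 3 of 5 in females (Meg3, Rian and Mirg), all with low above high, against 2.63% and 4.11% of all genes. Without Meg3 they had 1 of 4 genes in males and 2 of 4 in females. All these shares are given as background only and nothing is read from them, since the contrast that gave the calls also chose the domain through Meg3. On TPM, limma called 0 of the 5 genes in either sex, on average or for the difference between the sexes. At an unadjusted p under 0.05 it had 0 of 5 in males, 1 of 5 in females, 2 of 5 on average and 0 of 5 for the difference between the sexes, against 6.29%, 8.83%, 7.70% and 7.92% of all genes tested. Over all genes limma called 0.00% of 18303 in males, 0.0107% of 18668 in females, 0.00% of 18499 on average and 0.00541% for the difference between the sexes.

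Rian, the snoRNA host downstream of Meg3, was not called, and its TPM and its counts gave different directions in females. In males it lay at 356, 333 and 303 TPM at low extinction, against 276, 288 and 344 TPM at high extinction. In females it lay at 367, 380.3 and 245 TPM at low extinction, against 360.1, 359 and 348 TPM at high extinction. The female high-extinction libraries were tightly grouped, and the low-extinction ones held both the highest pair and the lowest value of all 12. On log2(TPM + 1) the change was 0.13 (SE 0.11, limma adjusted p = 0.945) in males and -0.13 (SE 0.16, limma adjusted p = 0.818) in females. Without replicate 3 of the low-extinction females, the female change was 0.07. In the authors' deposited tables Rian changed by 0.13 (SE 0.06, DESeq2 adjusted p = 0.445) in males and 0.15 (SE 0.06, DESeq2 adjusted p = 0.283) in females, values that did not pass the threshold in either sex.

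Mirg, the non-coding host of the microRNA cluster at the far end of the maternal transcripts, was higher at low extinction by TPM and differed less by counts. In females it lay at 33.8, 28.9 and 42.8 TPM at low extinction, against 21.5, 23.4 and 14.1 TPM at high extinction. All low-extinction females stood above all high-extinction females, with means of 35.1 ± 7.05 and 19.7 ± 4.91 TPM (SD, n = 3 each), a ratio of 1.78. In males it lay at 22.1, 28.3 and 28.5 TPM at low extinction, against 18.2, 21.3 and 25.1 TPM at high extinction, and the groups overlapped. Groups of females that did not overlap, with low above high, were found for 14.3% of all genes tested, and groups of males for 4.20%. The opposite order, low below high without overlap, was found for 1.98% in females and 7.28% in males, and for none of the 5 genes. Meg3 was the member without overlap in males and Mirg the one in females, 1 of 5 in each sex.

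The change of Mirg on log2(TPM + 1) was 0.82 (SE 0.21, limma adjusted p = 0.477) in females and 0.28 (SE 0.15, limma adjusted p = 0.850) in males. Without replicate 3 of the low-extinction females, the female change was 0.67. Averaged over the sexes it was 0.55 (SE 0.14, limma adjusted p = 0.368), the same direction in both sexes, and male minus female it was -0.54 (SE 0.28, limma adjusted p = 0.677). The authors' deposited tables gave 0.16 (SE 0.08, DESeq2 adjusted p = 0.453) in females and -0.05 (SE 0.10, DESeq2 adjusted p = 0.999) in males. TPM and counts therefore agreed for Meg3 but not for Mirg, whose female change on TPM was beyond the 95% interval of the count-based change, 0.01 to 0.32. Which reads each measure assigned to Mirg was not tested.

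**Figure D2:**
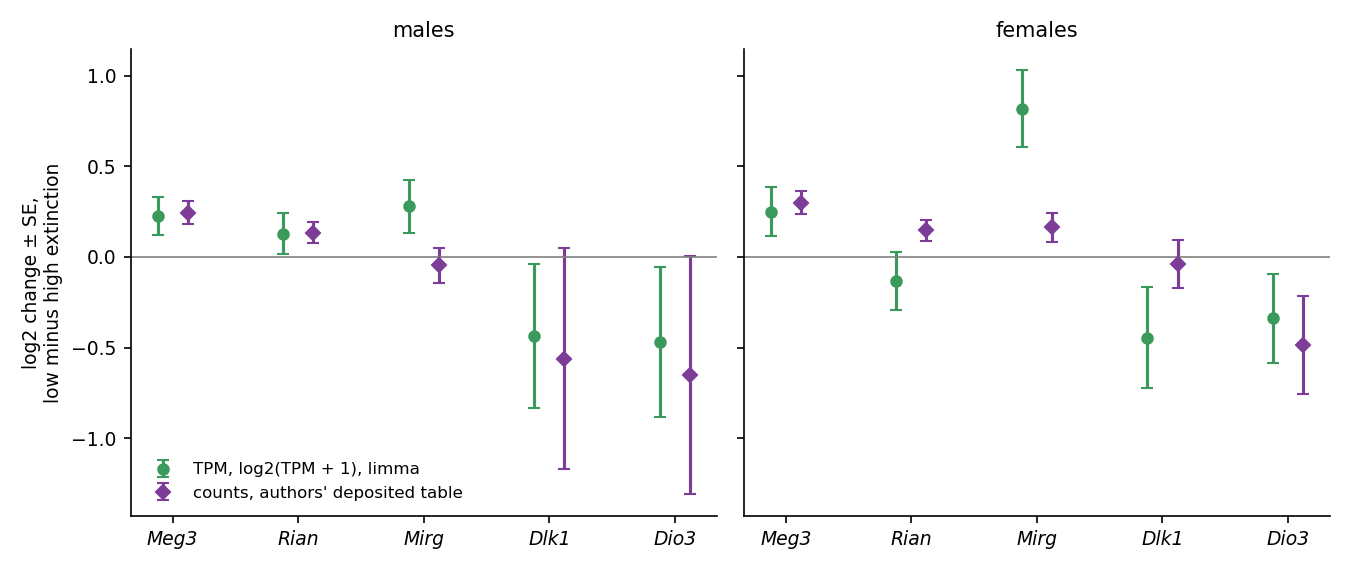
Log2 change, low minus high extinction, of the 5 genes in males (left) and females (right), from TPM with limma (green circles) and from counts in the authors' deposited DESeq2 tables (purple diamonds). Bars are SE. The measures gave similar changes for Meg3 and differed for Mirg in both sexes (0.82 on TPM and 0.16 on counts in females). In females they also differed for Rian and for Dlk1 (-0.45 on TPM and -0.04 on counts for Dlk1).

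Dlk1 and Dio3, the paternally expressed genes, had lower means at low extinction in both sexes, within a wide spread. Dlk1 encodes a transmembrane protein related to Notch ligands. In males it lay at 3.76, 1.18 and 4.67 TPM at low extinction, against 4.51, 2.59 and 6.41 TPM at high extinction. In females it lay at 3.38, 2.88 and 3.94 TPM at low extinction, against 2.93, 7.63 and 5.24 TPM at high extinction. The groups overlapped in both sexes, and the authors' deposited tables gave log2 changes of -0.56 (SE 0.61, DESeq2 adjusted p = 0.994) in males and -0.04 (SE 0.13, DESeq2 adjusted p = 0.967) in females. On log2(TPM + 1) the change was -0.44 (SE 0.40, limma adjusted p = 0.946) in males and -0.45 (SE 0.28, limma adjusted p = 0.652) in females. Single libraries moved these values widely. The male change of Dlk1 was -0.02 without replicate 2 of low extinction and -0.72 without replicate 2 of high extinction, and the female change -0.18 without replicate 2 and -0.75 without replicate 1 of high extinction.

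Dio3 encodes the deiodinase that inactivates thyroid hormone. In males it lay at 4.78, 2.75 and 1.74 TPM at low extinction, against 5.46, 1.95 and 7.26 TPM at high extinction. In females it lay at 2.70, 2.59 and 4.93 TPM at low extinction, against 5.89, 4.22 and 3.42 TPM at high extinction. Low-extinction means were below the high-extinction means in both sexes, but 1 or more libraries of each group lay within the range of the other. Its log2 changes in the authors' deposited tables were -0.65 (SE 0.66, DESeq2 adjusted p = 0.987) in males and -0.49 (SE 0.27, DESeq2 adjusted p = 0.565) in females. Their 95% intervals, -1.94 to 0.64 and -1.02 to 0.05, include both no change and a fall by more than the rise of Meg3. On log2(TPM + 1) the male change of Dio3 was -0.47 (SE 0.41, limma adjusted p = 0.945), -0.16 without replicate 3 and -0.90 without replicate 2 of high extinction. The female change was -0.34 (SE 0.25, limma adjusted p = 0.697), and -0.16 without replicate 1 of high extinction.

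Rtl1, the third paternally expressed protein-coding gene and not 1 of the 5, had the same direction as Meg3. Low-extinction males had 3.45 ± 0.420 TPM and high-extinction males 3.07 ± 0.292 TPM. Low-extinction females had 4.26 ± 0.442 TPM and high-extinction females 3.48 ± 0.251 TPM, and these groups did not overlap (SD, n = 3 each). That order was found for 14.3% of all genes tested in females. For Rtl1 the authors' deposited tables gave log2 changes of 0.19 (SE 0.14, DESeq2 adjusted p = 0.901) in males and 0.23 (SE 0.12, DESeq2 adjusted p = 0.493) in females. None of the changes of Dlk1, Dio3 and Rtl1 passed, differences between these genes were not tested, and the Rtl1 row may hold reads of the maternal RNAs that cross it.

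**Figure D3:**
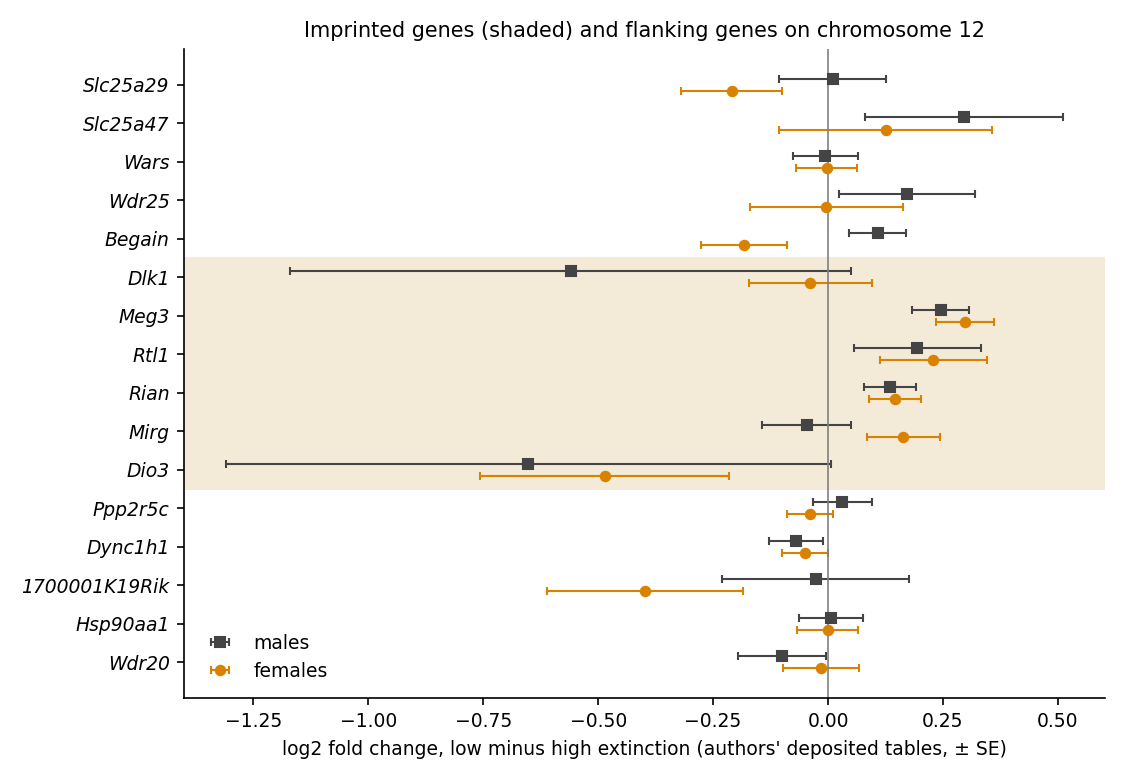
Log2 fold change, low minus high extinction, from the authors' deposited DESeq2 tables for the imprinted genes (shaded) and the 5 nearest expressed protein-coding genes on either side, in order along chromosome 12. Squares are males, circles are females and bars are SE. Meg3 lay at 0.24 and 0.30, and the 10 flanking genes had medians of 0.008 in males and -0.03 in females.

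None of the genes examined beside the domain was called. They were Slc25a29, Slc25a47, Wars, Wdr25 and Begain on the Dlk1 side and Ppp2r5c, Dync1h1, 1700001K19Rik, Hsp90aa1 and Wdr20 on the Dio3 side. The authors' deposited tables called 0 of the 10 in either sex, with 0 at an unadjusted p under 0.05 in either sex, and limma called 0. Their median log2 changes in the authors' tables were 0.008 in males and -0.03 in females, and over all genes with an adjusted p the change was above 0 for 48.4% of 20050 in males and 44.8% of 15644 in females. Hsp90aa1, a heat shock protein gene at 300.2 TPM, changed by 0.01 (SE 0.07) in males and -0.0005 (SE 0.07) in females there, and Dync1h1, the heavy chain of cytoplasmic dynein, by -0.07 (SE 0.06) and -0.05 (SE 0.05). Begain, a postsynaptic density gene next to Dlk1, had 0.11 (SE 0.06) in males and -0.18 (SE 0.09) in females.

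Between the start of Dlk1 and the end of Dio3 the annotation held 118 rows, of which 57 averaged 1 TPM or more and 18 were listed at 0 in every library. Beside the 5 genes there were 67 microRNA hairpin rows and 23 snoRNA rows. Of the other 113 rows, 45 were tested in males, 29 of them higher and 16 lower at low extinction, and 53 in females, 35 higher and 18 lower. Over all genes the log2 change was above 0 for 43.1% in males and 69.1% in females. The median change of these rows was 0.13 in males and in females, against -0.02 and 0.06 over all genes tested. Neither limma nor the authors' deposited tables called any of them, although only 15 in males and 7 in females had an adjusted p in those tables. Among those with an adjusted p, 2 were lower in males and 1, Rtl1, was higher in females at an unadjusted p under 0.05. The Mir540 row, which had no adjusted p, was higher in males in the authors' deposited table (log2 change 1.66, DESeq2 unadjusted p = 0.0456). Over all genes with an adjusted p, 2.63% in males and 4.11% in females were higher at that threshold. The share of all genes lower at it was not taken, so nothing is read from these rows. By TPM, 6 of the 45 rows tested in males and 4 of the 53 in females had all low-extinction libraries above all high-extinction ones. Over all genes this share was 4.20% and 14.3%. The opposite order was found for 1 row in males and 0 in females, against 7.28% and 1.98%. Of the rows with low above high, Mir485, Mir493 and Mir665 in males, and Mir666 and Gm25252 in females, averaged under 1 TPM at high extinction. They passed the filter only through their low-extinction libraries, so nothing is read from these counts. Among the rows too low to be tested, 1 of 68 in males and 5 of 60 in females had low above high without overlap, and 6 in males and 1 in females had low below high. The share over all genes too low to be tested was not taken, so nothing is read from these counts either.

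**Figure D4:**
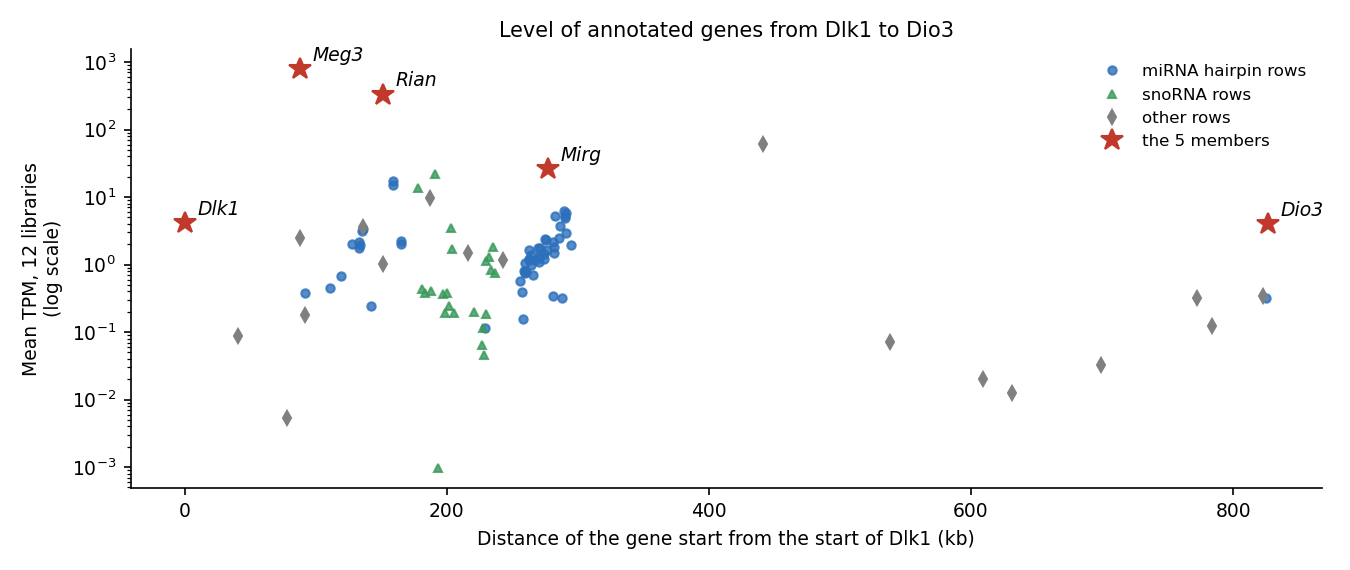
Mean TPM over 12 libraries (log scale) of the annotated genes from Dlk1 to Dio3 with a mean above 0, by distance of each start from the start of Dlk1 in kilobases. Red stars are Meg3, Rian, Mirg, Dlk1 and Dio3, blue circles microRNA hairpin rows, green triangles snoRNA rows and grey diamonds other rows. Hairpin rows crowded around Mirg at a few TPM, under the 783 TPM of Meg3 and the 25.7 TPM of Mirg itself.

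Rows inside Rian were led by the snoRNA row Gm23600 at 21.7 TPM, Mir1188 at 17.3 TPM, Mir341 at 15.2 TPM, Gm24564 at 13.7 TPM and the lincRNA Gm26945 at 9.53 TPM. Their reads cannot be told apart from those of Rian, which overlaps them on the same strand. The 4 hairpin rows inside Rian summed to 42.4, 32.1 and 34.8 TPM in low-extinction males, against 23.8, 33.8 and 33.4 TPM in high-extinction males. In females they summed to 47.4, 45.2 and 44 TPM at low extinction, against 31.9, 35.7 and 36.7 TPM at high extinction. The female groups did not overlap, an order found for 14.3% of single genes tested in females. Replicate 3 of low extinction in females, the lowest library for Rian itself, was not low for these rows. The sum of the 13 snoRNA rows inside Rian overlapped between groups in both sexes, at 51.1, 54.7 and 48.3 TPM in low-extinction females, against 42.0, 57.1 and 33.2 TPM in high-extinction females. Others inside Rian that reached 1 TPM were Gm23912, Mir370, DQ267102, Gm25357 and Gm27350.

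Inside Mirg, 12 of 14 hairpin rows reached 1 TPM, namely Mir382, Mir668, Mir485, Mir453, Mir154, Mir496a, Mir541, Mir409, Mir412, Mir369, Mir410 and Mir3072. They ran up to 6.27 TPM, for Mir541. The sum over all 14 was 62.8, 44.2 and 64.3 TPM in low-extinction females, against 46.5, 41.7 and 37.8 TPM in high-extinction females. In males it was 38.8, 37.2 and 35.9 TPM at low extinction, against 40.8, 60.4 and 25.3 TPM at high extinction. Both pairs of groups overlapped in these sums. Mir485 had low-extinction libraries above high-extinction ones in both sexes by TPM, at 4.04 ± 3.38 and 0.264 ± 0.0488 TPM in males and 1.25 ± 1.46 and 0.287 ± 0.0386 TPM in females (SD, n = 3 each). Mir485 reached a mean of 1 TPM in males only through the low-extinction libraries. The mean counts of Mir485, Mir668, Mir409 and Mir410 in the authors' deposited tables were 0 in both sexes. That of Mir412 was 1.67 in males and 2.46 in females. The TPM sums include these rows, which the counts do not bear out.

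Outside Meg3, Rian and Mirg, 22 of 47 hairpin rows reached 1 TPM. Between Meg3 and Rtl1 they were Mir493, Mir337, Mir540, Mir665, Mir3070a and Mir3070b, and 5 of the 6, all but Mir3070a, had low-extinction males above high-extinction males without overlap, an order seen for 4.20% of all genes. In females all 6 overlapped. These hairpins lie close together and are not independent, and Mir493 and Mir665 reached a mean of 1 TPM in males only through the low-extinction libraries. Mir665 averaged 1.92 TPM in low-extinction and 0.486 TPM in high-extinction males. Mir493 averaged 3.00 ± 1.20 TPM in low-extinction and 0.727 ± 0.138 TPM in high-extinction males, and 2.94 ± 1.94 TPM in low-extinction and 1.51 ± 0.819 TPM in high-extinction females, which overlapped (SD, n = 3 each). Its mean count in the authors' deposited tables was 7.05 in males and it had no adjusted p. Between Rian and Mirg they were Mir758, Mir494, Mir679, Mir1193, Mir666, Mir667, Mir376c, Mir654, Mir376b, Gm25252, Mir300, Mir381, Mir487b, Gm44322, Gm27379 and Mir544, each at 2.40 TPM or less. Their mean counts in the authors' male table lay between 2.27 and 11.2. Other rows that reached 1 TPM were the snoRNA rows Gm25856, Gm23787 and Gm22205, the non-coding Gm37899, B830012L14Rik and Gm27596, and a processed pseudogene annotated as Gm3379. Gm3379 averaged 59.4 ± 3.52 TPM in low-extinction and 59.4 ± 7.12 TPM in high-extinction males (SD, n = 3 each). Its mean count in the authors' deposited tables was only 2.35 in males and 2.51 in females, so the counts do not bear out that level. The cause of the gap was not tested.

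From mouse to mouse, Mirg followed Meg3 closely and Rian did not. Levels were taken as log2(TPM + 1) minus the mean of the sex, over 12 libraries that share each library's scaling, and correlations are descriptions. Pearson's r with Meg3 was 0.86 for Mirg, 0.79 for Rtl1, -0.21 for Rian, -0.22 for Dlk1 and 0.04 for Dio3. Without replicate 3 of the low-extinction females it was 0.79 for Mirg, 0.73 for Rtl1 and 0.52 for Rian. Dlk1 and Dio3 had an r of 0.40 with each other. With deviations from the mean of each group of sex and extinction, so that the difference between low and high is removed, r with Meg3 was 0.83 for Mirg and 0.63 for Rtl1.

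**Figure D5:**
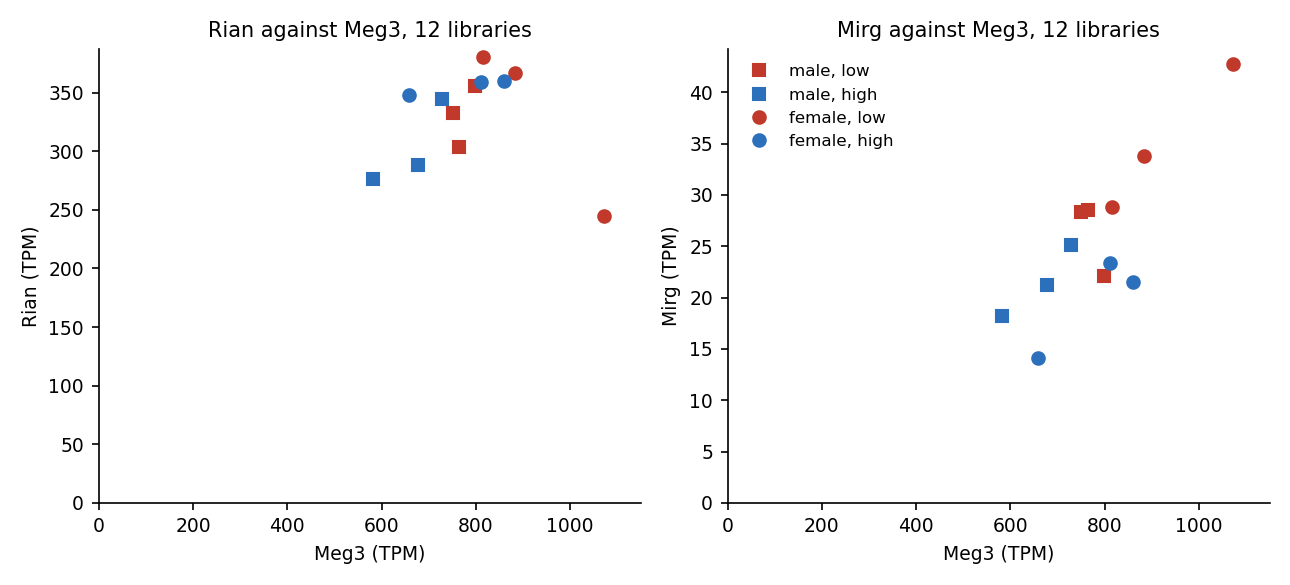
Rian (left) and Mirg (right) against Meg3, both in TPM, in each of the 12 libraries. Red marks low and blue high extinction, squares are males and circles females. One low-extinction female, at 1072 TPM of Meg3 and 245 TPM of Rian, lies away from the other 11 on the left and at the top of the cloud on the right.

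Ratios between the RNAs put that library in view without the common scaling. Rian relative to Meg3 was 0.228 in replicate 3 of the low-extinction females and lay between 0.397 and 0.529 in the other 11 libraries. Meg3 made up 78.8% of the summed TPM of Meg3, Rian and Mirg there, against 64.5% to 69.7% elsewhere. Mirg relative to Meg3 was 0.0383, 0.0354 and 0.0399 in low-extinction females, against 0.0250, 0.0289 and 0.0214 in high-extinction females, without overlap. This holds for TPM and not for the authors' counts, in which the female log2 change of Mirg, 0.16, was smaller than that of Meg3, 0.30. In males it was 0.0277, 0.0377 and 0.0373 at low extinction, against 0.0313, 0.0314 and 0.0345 at high extinction, and the groups overlapped. A ratio shows that the RNAs differed by unequal amounts, not which of them differed.

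Among the 10655 genes that averaged 10 TPM or more, the 10 whose deviations were most like those of Meg3 were Hdac3, Gm27000, Gatc, Idh2, R3hdm1, Anapc5, Srrm2, Fbxo9, Cox15 and Eef2k. Hdac3, a histone deacetylase, had an r of 0.96 and Eef2k, the kinase of elongation factor 2, an r of 0.91, against a median of 0.28 over all 10655 genes. Mirg ranked 32nd and Rian 9977th. Dividing by median-of-ratios size factors left 8 of the 10 in the list and brought the median of all genes to -0.01, and Hdac3 to rank 55. With deviations from the mean of each group of sex and extinction, 1 of the 10, Hdac3, stayed in the list. None of the 10 was called in either of the authors' deposited tables, where Gm27000, a lincRNA on the X chromosome at 338 TPM, changed by 0.23 (SE 0.08, DESeq2 adjusted p = 0.280) in males and 0.15 (SE 0.10, DESeq2 adjusted p = 0.664) in females. That male change was the largest of the 10. Hdac3 changed by 0.05 (SE 0.07) in males and 0.03 (SE 0.06) in females. Fbxo9, the only one below 0 in either sex, had -0.006 (SE 0.07) and -0.05 (SE 0.06).

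The ribosomal RNA share and some markers of other cells moved with Meg3 over the libraries. Across the 12 libraries, as deviations from the sex mean, r of Meg3 was -0.67 with the ribosomal RNA share, -0.61 with the summed choroid plexus markers, 0.60 with the microglia markers, 0.55 with the endothelial and pericyte markers, 0.45 with the astrocyte markers, 0.40 with the thalamus and habenula markers and 0.25 with the neuron markers. It lay between -0.19 and 0.19 with the ependymal, oligodendrocyte, meningeal and hypothalamus markers. Without replicate 3 of the low-extinction females, r with these 4 lists was -0.42, -0.01, -0.26 and 0.42. It was then -0.59 with the ribosomal RNA share, -0.57 with the choroid plexus, 0.53 with the microglia and 0.40 with the endothelial and pericyte markers. Choroid plexus markers, 10 of 10 detected, summed to 152 to 1327 TPM in low-extinction males and 521 to 4350 TPM in high-extinction males, and to 244 to 1568 TPM in low-extinction females and 141 to 1688 TPM in high-extinction females. Ependymal markers, 8 of 8 detected, summed to 13.6 to 28.5 TPM in low-extinction males and 44.5 to 54.2 TPM in high-extinction males, and the female groups overlapped at 35 to 52.5 TPM and 19.3 to 48.1 TPM. The authors' deposited male table called 4 of the 8, each lower at low extinction, against 0.389% of all genes in that direction. In females, markers of other regions and of vessels were higher at low extinction without overlap, the direction of Meg3. Among single genes tested, 14.3% had that order in females. Thalamus and habenula markers, 12 of 12 detected, summed to 198 to 208 TPM in low-extinction and 134 to 164 TPM in high-extinction females, and the authors' deposited table called 3 of them, each higher at low extinction. Endothelial and pericyte markers, 12 of 12 detected, summed to 195 to 209 TPM in low-extinction and 161 to 186 TPM in high-extinction females, with 2 called higher. Over all genes, 0.569% were called with low above high in the female table. In males both sums overlapped, at 110 to 155 TPM and 167 to 176 TPM at low extinction, against 132 to 170 TPM and 155 to 177 TPM at high extinction. With ribosomal RNA-derived rows left out and the rest rescaled, the change of Meg3 was 0.21 in males and 0.20 in females. The part of these cells in the differences was not tested, and in whole tissue fewer cells of a type cannot be told apart from less RNA per cell.

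Some other nuclear-retained RNAs were called as well. Of 10 listed, 8 were found in the tables. In males the authors' deposited table called 3 of 8, each higher at low extinction, and in females 1 of 8, also higher. Over all genes, 0.115% in males and 0.569% in females were called in that direction. Malat1, a nuclear speckle RNA, was 1.25-fold higher (DESeq2 adjusted p = 0.0185) and Miat 1.23-fold higher (DESeq2 adjusted p = 0.000265) in males. Snhg11 was 1.21-fold higher in males (DESeq2 adjusted p = 0.00252). Female libraries gave it a ratio of 1.24 (DESeq2 adjusted p = 8.21e-05). The median log2 change of the 8 was 0.13 in males and 0.15 in females in those tables. Snhg14, Neat1 and Kcnq1ot1, imprinted or paraspeckle RNAs, did not pass, with values of 0.14, -0.15 and 0.01 in males and 0.17, 0.14 and 0.10 in females.

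Of imprinted genes in other domains, 1 was called in each sex, and these were different genes. Of 52 such genes, 46 in males and 43 in females had an adjusted p in the authors' deposited tables, which makes 1 of 46 and 1 of 43, against 0.504% and 0.857% of all genes. Over all genes, 0.389% were called with low below high in the male table, the direction of the gene called there. In the female table, a share of 0.569% was called with low above high, the direction of the gene called there, and 0.288% with low below high. Mest, a paternally expressed hydrolase gene, was 1.37-fold lower at low extinction in males (DESeq2 adjusted p = 0.0206), at 23.7 ± 2.93 TPM against 32.2 ± 3.33 TPM at high extinction (SD, n = 3 each). Igf2, a growth factor expressed by choroid plexus and meninges, was 1.39-fold higher at low extinction in females (DESeq2 adjusted p = 3.77e-05), although its level was 22.9 ± 1.68 TPM in low-extinction and 24.6 ± 4.75 TPM in high-extinction females (SD, n = 3 each). In males it had the other sign and did not pass, at 18.4 ± 11.6 TPM in low-extinction and 48.3 ± 29.8 TPM in high-extinction males (SD, n = 3 each), with a log2 change of -1.62 (SE 0.51, DESeq2 adjusted p = 0.138). Meningeal fibroblast markers, which include Igf2, summed to 143 to 175 TPM in low-extinction females and 119 to 126 TPM in high-extinction females. They summed to 74.3 to 130 TPM in low-extinction males and 141 to 157 TPM in high-extinction males. Neither pair of groups overlapped, the order was opposite in the sexes, and their part in the values of Igf2 was not tested. Among single genes tested, 14.3% in females and 7.28% in males had these orders without overlap. Of these 10 markers, Igf2 among them, the authors' deposited tables called 5 in females, each higher at low extinction. In males they called 1, lower at low extinction. The medians of the list of imprinted genes were -0.07 in males and -0.02 in females. Cdkn1c, a cell cycle inhibitor, had -1.27 (SE 0.49) in males and 0.06 (SE 0.25) in females, and Usp29 -0.07 (SE 0.10) and 0.22 (SE 0.08), and neither passed.

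Genes that act with the proteins of the domain were examined for Dio3 and Dlk1. Among 21 thyroid hormone genes the authors' male table called 2, both lower at low extinction, against 0.389% of all genes in that direction. One of them is Slco1c1, a transporter that carries thyroid hormone into the brain. It was 1.34-fold lower (DESeq2 adjusted p = 0.0251), at 32.7 ± 2.85 TPM at low extinction against 42.1 ± 7.16 TPM at high extinction (SD, n = 3 each). For females the authors' deposited table called 0 of them, with 0 higher and 6 lower at an unadjusted p under 0.05, and it gave Slco1c1 -0.08 (SE 0.09). Over all genes 4.11% were higher at that threshold there. The share of all genes lower at it was not taken, so nothing is read from the 6. The difference between the sexes was not tested for these genes. Slco1c1 is also expressed in choroid plexus and vessels, whose marker sums are given above. Thra, a thyroid hormone receptor, did not pass, at 0.01 (SE 0.06) in males and -0.20 (SE 0.06, DESeq2 adjusted p = 0.116) in females. Rxra, its partner, had -0.11 (SE 0.08) in males and -0.17 (SE 0.08) in females.

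Of 30 Notch pathway genes, the authors' deposited tables called 0 in either sex, with 6 in males and 3 in females at an unadjusted p under 0.05. In males 2 of these were higher and 4 lower at low extinction, and in females 0 were higher and 3 lower. Over all genes, 2.63% in males and 4.11% in females were higher at that threshold. The share of all genes lower at it was not taken, so nothing is read from these counts. Notch2, a receptor, had log2 changes of -0.30 (SE 0.10, DESeq2 adjusted p = 0.227) in males and -0.004 (SE 0.08) in females. Hey2, a transcriptional target, had -0.54 (SE 0.19) and 0.07 (SE 0.17), and the glycosyltransferase gene Lfng 0.33 (SE 0.13) and 0.04 (SE 0.14). Polycomb repressive complex 2, with which Meg3 has been reported to associate, gave 0 of 12 genes called in either sex. At an unadjusted p under 0.05 it had 1 in each, lower at low extinction in males and higher in females. The shares given above for the Notch genes apply here too, and nothing is read from these counts. Accessory subunit genes of the complex had -0.17 (SE 0.07) in males and -0.06 (SE 0.06) in females for Aebp2, 0.13 (SE 0.08) and 0.19 (SE 0.07) for Mtf2, and 0.06 (SE 0.24) and -0.34 (SE 0.20) for Epop.

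Of 16 genes that establish or keep imprints, 0 were called in either sex in the authors' deposited tables. At an unadjusted p under 0.05 there were 0 in males and 2 in females, both higher at low extinction. Over all genes, 2.63% in males and 4.11% in females were higher at that threshold. Zfp445, a zinc finger protein that protects imprints, had 0.04 (SE 0.06) in males and 0.13 (SE 0.06) in females. Tet2, a 5-methylcytosine oxidase, had 0.09 (SE 0.08) in males and 0.18 (SE 0.07, DESeq2 adjusted p = 0.253) in females, and the DNA methyltransferase Dnmt3a -0.13 (SE 0.07) and -0.01 (SE 0.06).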

How the data were processed

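Hippocampal RNA of 12 mice was enriched for polyadenylated RNA and made into libraries from 1 µg of total RNA with an mRNA kit, as the labels' protocols state. Tools named in the submitters' processing notes are DESeq2, StringTie 1.3.3b, HTSeq, Bowtie2 and TopHat2, with mm10 and GRCm38.p5 as builds and no role given for each. The authors deposited a TPM table for each sex, and TPM lowers all transcripts of a library in which a few take a large share. Per the file headers, their deposited DESeq2 output, again 1 table per sex, holds a mean normalised count (a signal on the count scale), a log2 fold change, its error, a score (the Wald statistic) and raw and adjusted p-values. The direction of the deposited log2 fold change is not named. It had the opposite sign to the TPM change, low minus high, for 101 of 101 genes called in the male table and 133 of 134 in the female table (r across genes -0.58 and -0.46), so it was multiplied by -1.

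Differences were taken within each sex, because the tables were made separately. Genes averaging 1 TPM or more entered limma 3.58.1 (R 4.3.3) with a mean-variance trend on log2(TPM + 1) and Benjamini-Hochberg adjustment at 0.05, over 6 libraries in each sex and 12 for the average and for male minus female. The step was tested on simulated data, where it called 76% of planted log2 changes of 1 in males and 82% in females, with 11 and 14 false calls. For changes of 0.5 it called 52% in males and 42% in females. No smaller change was planted, and the changed genes averaged 5 TPM or more. The test therefore gives no rate for changes as small as that of Meg3 or genes as low as Dlk1 and Dio3. Intervals of the authors' changes are 1.96 standard errors either side. Positions are from GENCODE M21, which held 52403 of the 52636 gene identifiers, and sequences are RefSeq's on GRCm38.p6. The 5 genes and the 18 gene lists were chosen with earlier results of these data known. Named genes are the 5, the annotated genes from Dlk1 to Dio3 at 1 TPM or more, 5 expressed protein-coding neighbours on each side, the 10 most like Meg3, and from other lists those called plus up to 3 with the smallest p. Alternatives were other pseudocounts, filters, scalings and variance models, a joint fit, the authors' tables and leaving out each library. Leaving out 358 ribosomal RNA-derived rows was chosen after seeing the data. Figures were made in Python 3.11.15 with matplotlib 3.10.9. Values of some genes of the thyroid hormone list are not reported here, although the list's counts include them.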

Additional observations from a re-analysis of the deposited data

How the results depend on the processing

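No paired analysis was possible because replicates were numbered by accession order, which ties no mouse to one of another group. Read depth is unknown, and 3 mice per group leave small changes of low genes such as Dlk1 and Dio3 within the spread. With no single library left out, the direction of Meg3, Dlk1 and Dio3 within each sex and on average held under all pseudocounts, filters, scalings, variance models and the authors' tables that gave a value, and a filter at a mean of 5 TPM gave none for Dlk1 and Dio3. It also held on leaving out each library, where Meg3 ran from 0.13 to 0.30 in males and 0.13 to 0.33 in females, while Dlk1 ran from -0.72 to -0.020 in males and -0.75 to -0.18 in females, and Dio3 from -0.90 to -0.16 in males and -0.57 to -0.16 in females. The authors' deposited tables put Meg3 past the threshold, at 0.24 in males and 0.30 in females, and turned Mirg in males to -0.046 and Rian in females to 0.15. Leaving out single libraries gave Rian in females -0.25 to 0.070 and on average -0.059 to 0.099. Male minus female, the small difference of Meg3 became 0.078 with median-of-ratios scaling and 0.0079 without ribosomal RNA-derived rows, and ran from -0.12 to 0.089 with single libraries left out. That of Dlk1 became -0.062 with a pseudocount of 0.1 TPM and -0.021 with 0.5 TPM and ran from -0.27 to 0.43, and that of Dio3 ran from -0.57 to 0.18. The cause of these turns was not tested. Numbers of genes called by limma were 1 in males in the joint fit and 2 without ribosomal RNA-derived rows. In females they were 1 with no filter, 4 at 5 TPM and 0 in the joint fit, and for male minus female 2 with no filter and 2 without the variance trend. With single libraries left out they ran from 2 to 6 in males, 4 to 10 in females, 0 to 3 on average and 1 to 4 for male minus female. Of the 10 genes most like Meg3, 1 was shared under deviations from the group mean and 8 under either rescaling.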

Other observations

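Dio3os, the non-coding RNA that starts beside Dio3 on the other strand, is listed under another symbol at a mean of 0.345 TPM and was chosen after its values were seen. Low-extinction males had 0.142 ± 0.206 TPM and high-extinction males 0.565 ± 0.211 TPM, without overlap. Low-extinction females had 0.296 ± 0.103 TPM and high-extinction females 0.378 ± 0.124 TPM, with overlap (SD, n = 3 each). The authors' deposited tables gave it log2 changes of -1.83 (SE 0.82, DESeq2 adjusted p = 0.521) in males and 0.02 (SE 0.71) in females. In males its direction was that of Dio3, and neither passed.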
